A study of Homo sapiens with 21 samples.

Results

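The genes described here make cholesterol and fatty acids, or control the genes that do. They are 29 genes chosen by symbol from the 23368 genes listed for hTERT-HPNE cells, an immortalized and nontransformed human pancreatic cell line, and all 29 were among the 19694 genes that could be tested. The rule names genes by what they do and uses no measured value, but it was written with earlier results of these data known. Of the 29 members, 7 belong to the mevalonate pathway, 9 lead from its product to cholesterol, 5 are regulators, 1 carries sterol through the cytosol and 7 make or modify fatty acids.

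The study asked how cells respond to DNA breaks and to oxidative stress, and measured RNA by sequencing in 21 libraries, 3 biological replicates in each of 7 groups. Untreated cells were collected at 0 h. Cells given 300 µM hydrogen peroxide (H2O2), an oxidant, were collected at 4, 8 or 24 h, as were cells given 400 ng/ml neocarzinostatin (NCS), a compound that cuts both DNA strands. All groups came from 1 cell line immortalized with telomerase, kept in a medium with 5% serum, EGF and puromycin. The medium was renewed when either agent was added, so in each comparison with untreated cells the agent cannot be told apart from fresh medium and hours in culture. Cells given H2O2 and cells given NCS for the same time shared both. The 6 comparisons with untreated cells share the 3 untreated libraries.

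Each value below is a regularized log (rLog) value, a log2 scale on which the counts of a gene were scaled for library size and drawn toward the gene's mean over all libraries. A difference of rLog values therefore understates a change, most of all in genes with few reads. The depth of the libraries is unknown, because the table holds no counts. A gene passed the test at an adjusted p-value under 0.05 in one limma fit of the 7 groups, adjusted by Benjamini-Hochberg over the 19694 genes, and errors of differences are standard errors (SE) from that fit. The p-values weigh each difference of group means against the spread between libraries of the same group, estimated over all 7 groups.

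The mesenchymal and progenitor markers VIM, FN1, NES, CDH2 and ZEB1 lay between 11.04 and 20.14 in untreated cells. The ductal markers KRT19 and EPCAM stood at 0.58 to 0.66 and at -1.77 to -1.76, while KRT18 reached 11.60 to 11.67. The acinar genes PRSS1, CELA3A and PTF1A and the islet gene INS were listed at 0 in every library. The 3 libraries of H2O2 at 8 h lay farthest from each other, with mean distances of 13.1, 14.9 and 13.3 over all genes against 9.28 to 11.0 in the other 18 libraries. Replicate 2 of that group had the highest value of its group for 20 of the 29 members, and for 30.5% of all genes tested. Untreated replicate 1 was the highest untreated library for 21 of the 29 members, and for 45.6% of all genes tested. Other groups also had 1 library that was highest for most members. Replicate 3 of NCS at 4 h was highest for 20 of the 29, and for 28% of all genes tested. Replicate 1 of H2O2 at 24 h was highest for 19, and for 28.5% of all genes tested.

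As background, cells build cholesterol from acetyl-CoA through mevalonate, farnesyl diphosphate, squalene and lanosterol, and build fatty acids from the same acetyl-CoA through malonyl-CoA. Both pathways are controlled by the sterol regulatory element-binding proteins (SREBPs), which are made as membrane proteins of the endoplasmic reticulum. When sterol is scarce, SCAP escorts an SREBP to the Golgi, where proteases release the part that enters the nucleus and turns on the genes. When sterol is plentiful, INSIG proteins hold SCAP back. SREBP-2, from SREBF2, acts mainly on sterol genes and SREBP-1, from SREBF1, mainly on fatty acid genes. At many of these promoters SREBPs act together with the factor NF-Y.

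Promoters were read from RefSeq (GRCh38.p14), as the 250 bases before each annotated transcript start, and 25 of the 29 members matched, with 34 windows among them. SQLE, FDFT1, FASN and ACAT2 did not match. Of the 25 members, 17 had a window with the NF-Y box CCAAT on either strand, a share of 68.0% against 37.0% of the 27305 symbols with a promoter in that table. The sterol regulatory element in its strict form TCACNCCAC occurred in 1 of the 25, SREBF2, a share of 4.0% against 1.09%. The E-box CACGTG, which SREBP-1 can also bind, occurred in 2, INSIG1 and SCAP, a share of 8.0% against 7.73%. A match describes letters only, and nothing about binding was measured. The promoters of 4 members whose values in every library follow are printed here to show where these letters lie, 5′ to 3′ on the strand of the gene, ending at the base before the start, with the motif letters in capitals and a CCAAT on the opposite strand reading ATTGG. In SREBF2 the sterol element begins 133 bases before the start and a CCAAT on the opposite strand 106 bases before it. In INSIG1 an opposite-strand CCAAT begins 170 bases and the E-box 55 bases before the start. SCD holds CCAAT at 229 and 186 bases before the start, and EBP holds it on the opposite strand at 191, 70 and 30 bases before the start.
SREBF2 (chr22:41832855-41833104, + strand): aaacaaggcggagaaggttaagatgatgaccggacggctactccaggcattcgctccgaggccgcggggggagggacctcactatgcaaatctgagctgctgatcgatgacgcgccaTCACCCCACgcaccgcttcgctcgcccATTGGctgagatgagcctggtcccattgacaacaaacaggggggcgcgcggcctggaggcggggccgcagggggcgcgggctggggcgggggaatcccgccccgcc
INSIG1 (chr7:155297628-155297877, + strand): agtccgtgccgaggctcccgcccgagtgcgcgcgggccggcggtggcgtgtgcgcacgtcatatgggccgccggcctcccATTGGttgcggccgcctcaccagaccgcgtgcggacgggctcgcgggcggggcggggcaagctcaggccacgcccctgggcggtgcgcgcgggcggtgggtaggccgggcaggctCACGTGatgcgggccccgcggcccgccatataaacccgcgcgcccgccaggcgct
SCD (chr10:100346983-100347232, + strand): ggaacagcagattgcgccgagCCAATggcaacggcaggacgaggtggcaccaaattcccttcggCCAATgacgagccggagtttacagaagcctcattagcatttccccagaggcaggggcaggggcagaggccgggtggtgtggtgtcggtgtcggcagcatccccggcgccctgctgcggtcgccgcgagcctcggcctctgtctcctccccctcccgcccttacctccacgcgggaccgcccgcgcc
EBP (chrX:48521558-48521807, + strand): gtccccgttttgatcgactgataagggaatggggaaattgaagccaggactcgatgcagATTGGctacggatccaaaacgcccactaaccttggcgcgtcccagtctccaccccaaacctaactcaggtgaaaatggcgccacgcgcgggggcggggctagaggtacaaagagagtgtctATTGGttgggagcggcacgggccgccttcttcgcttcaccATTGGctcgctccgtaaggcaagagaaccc

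Most of the 29 members were lower after 8 h and 24 h of H2O2, and at 24 h of NCS more of them were higher than lower. At 24 h of H2O2, 22 of the 29 members were lower than in untreated cells and 0 were higher, against 19.9% and 20.2% of all genes tested by limma. At an unadjusted p-value under 0.05 the numbers were 23 lower and 0 higher, with no share of all genes counted at that limit. The largest difference was in ACAT2, which makes acetoacetyl-CoA in the cytosol (-0.75 ± 0.042). At 8 h, 16 members were lower and 2 higher, against 18.6% and 18.8% of all genes. At 4 h, 4 members were higher and 3 lower, smaller shares than the 26.2% and 19.7% of all genes. The 29 members had a median difference of 0.00 after 4 h, -0.18 after 8 h and -0.27 after 24 h, whereas the median over all genes tested was within 0.004 of 0 at each time. In bulk samples such as these, fewer cells of a type and less RNA per cell cannot be told apart.

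Under NCS, 5 members were higher and 3 lower at 4 h, against 7.47% and 9.72% of all genes. At 8 h, 5 were higher and 8 lower, against 10.5% and 13.3%. At 24 h, 10 were higher and 2 lower, against 19.6% and 18.4%. The median difference of the members was 0.05, -0.02 and 0.09 at the 3 times. Several of the smaller counts rest on untreated replicate 1. Without that library the members higher under H2O2 at 4 h numbered 9 and not 4. Under NCS, without it, those higher at 4 h numbered 8 and not 5, those lower at 4 h numbered 1 and not 3, those lower at 8 h numbered 4 and not 8, and those higher at 24 h numbered 15 and not 10. The 16 members lower at 8 h of H2O2 stayed at 16 in number without it, and the 22 lower at 24 h became 21. Without replicate 2 of H2O2 at 8 h, the members lower at 8 h numbered 18. In none of the 9 comparisons of treated with untreated cells or of H2O2 with NCS did a member pass both limits used in the study, which ask for an adjusted p-value under 0.05 together with a log2 difference over 1 and which 2.62% of all genes tested did in at least 1 of them. The number was also 0 with an unadjusted p-value, since no member differed by more than 0.75. The study set its limits on log2 fold changes from DESeq2, whereas here they were set on differences of rLog values, which understate a change. The 0 therefore does not tell which members passed in the study.

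**Figure D1:**
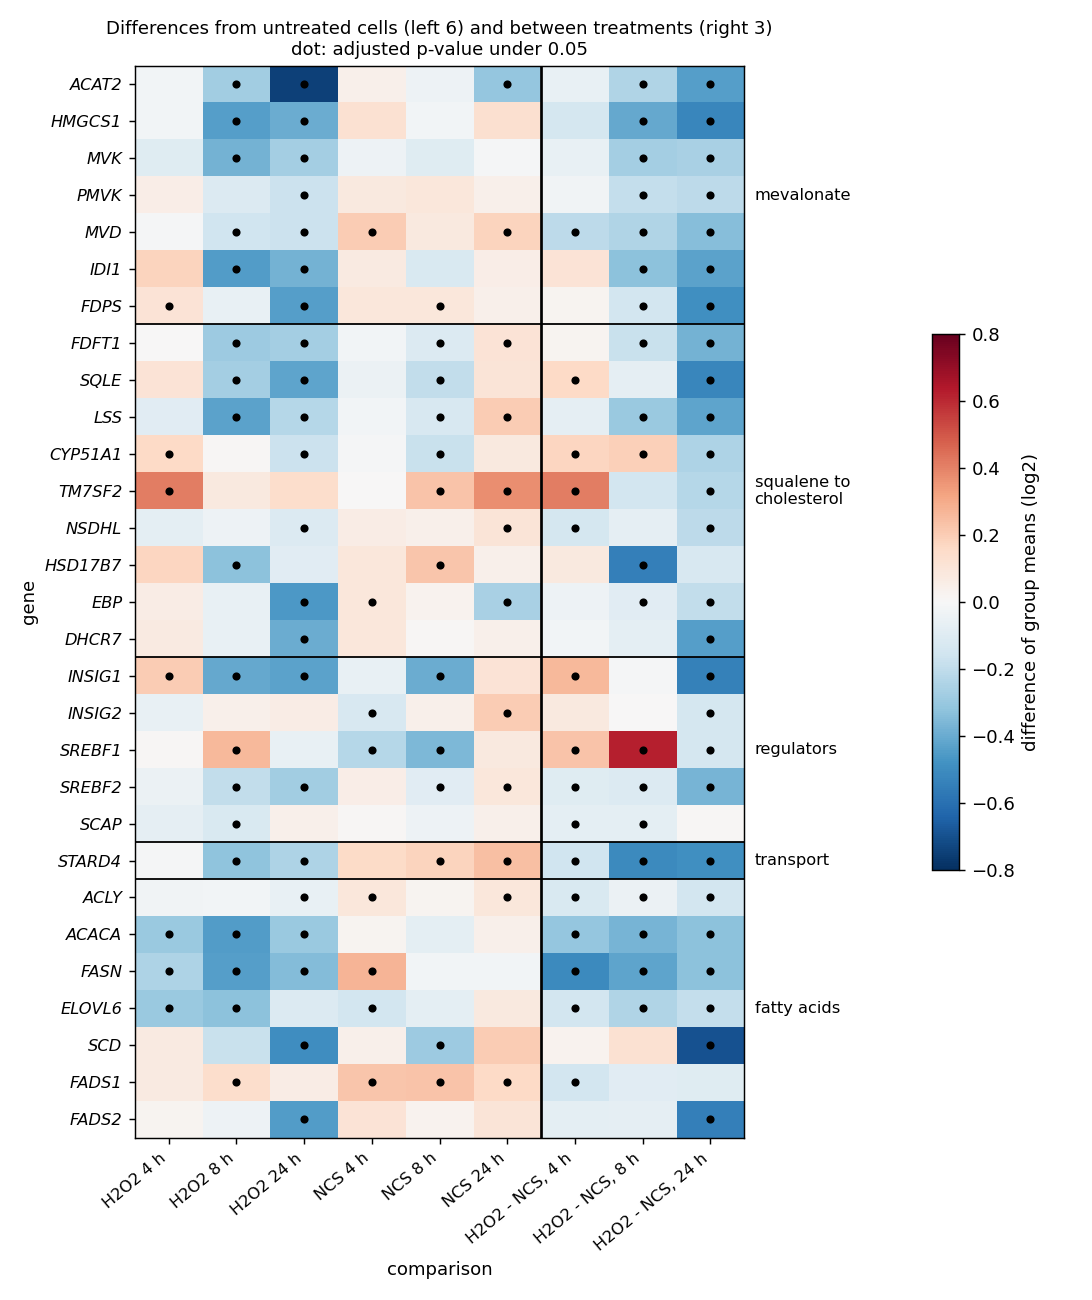
Differences of group means (log2 scale, colour) for the 29 members, one gene in each row and one comparison in each column: 6 treated groups minus untreated cells on the left and H2O2 minus NCS at the same time on the right, with a dot where the adjusted p-value was under 0.05. Blue fills most of the H2O2 8 h and 24 h columns, with 16 and 22 members lower, and the H2O2 minus NCS column at 24 h, with 26 lower.

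**Figure D2:**
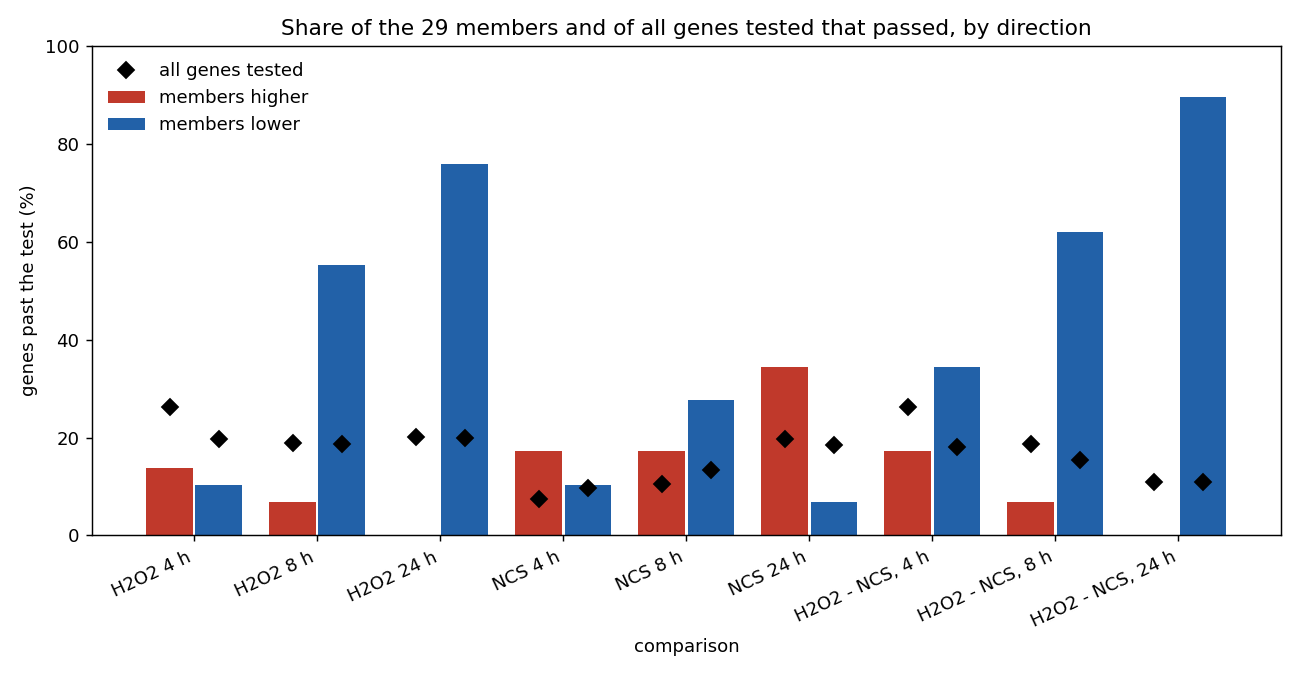
Percent of the 29 members that passed the test as higher (red bars) or lower (blue bars) in each of the 9 comparisons, with the percent of all 19694 genes tested in the same direction as black diamonds. The lower share of members was 55.2% at 8 h and 75.9% at 24 h of H2O2 and 89.7% in H2O2 against NCS at 24 h, where the diamonds stand at 18.6%, 19.9% and 10.9%.

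All 7 mevalonate members were lower than in untreated cells at 24 h of H2O2, with a median difference of -0.38, and 5 of 7 at 8 h, with a median of -0.28, where 19.9% and 18.6% of all genes tested were lower. The 24 h calls of MVD and PMVK, described last, did not hold without each library. In ACAT2 the untreated libraries read 10.78, 10.65 and 10.72. Under H2O2, ACAT2 read 10.64, 10.64 and 10.78 after 4 h, 10.37, 10.49 and 10.45 after 8 h and 9.98, 9.97 and 9.95 after 24 h. Under NCS it read 10.75, 10.73 and 10.78 after 4 h, 10.66, 10.64 and 10.73 after 8 h and 10.38, 10.37 and 10.46 after 24 h. The libraries of H2O2 at 8 h and 24 h and of NCS at 24 h lay below every untreated library, and the other treated groups overlapped the untreated ones. ACAT2 fell by 0.28 at 8 h (SE 0.042, adjusted p of 2.77e-05) and by 0.75 at 24 h (adjusted p of 3.66e-11) of H2O2. At 24 h of NCS it fell by 0.31 (adjusted p of 6.87e-06), and H2O2 minus NCS at 24 h was -0.44 ± 0.042 (adjusted p of 3.77e-07). Exons of ACAT2 overlap those of SOD2 and TCP1 on the opposite strand, and whether the counting kept the strand is not given in the sources used here.

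IDI1, which interconverts the isoprene units isopentenyl and dimethylallyl diphosphate, read 10.67, 10.44 and 10.45 in the untreated libraries. Under H2O2 it read 10.70, 10.64 and 10.77 after 4 h, 10.08, 10.25 and 9.89 after 8 h and 10.19, 10.09 and 10.14 after 24 h. With NCS the values were 10.51, 10.56 and 10.70 after 4 h, 10.43, 10.36 and 10.42 after 8 h and 10.62, 10.55 and 10.54 after 24 h. Every library of H2O2 at 8 h and 24 h lay below every untreated library, and replicate 3 at 8 h was the lowest of all 21. The libraries of NCS at 8 h also lay just under the untreated ones, with a difference of -0.12 ± 0.075 that did not pass. The differences from untreated cells were 0.18 ± 0.075 at 4 h (adjusted p of 0.0544), -0.45 ± 0.075 at 8 h (adjusted p of 9.1e-05) and -0.38 ± 0.075 at 24 h (adjusted p of 0.000362) of H2O2. Between 4 h and 8 h of H2O2 the level fell by 0.63 (SE 0.075, adjusted p of 1.73e-06), the largest difference between these times among the 29 members. Exons of IDI1 overlap those of IDI2-AS1 on the opposite strand.

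Among the other 5 mevalonate members, HMGCS1, which makes HMG-CoA, and MVK, mevalonate kinase, were lower at 8 h of H2O2 (differences of -0.44 ± 0.064 and -0.38 ± 0.045) and did not differ between 8 h and 24 h past the test (0.04 ± 0.064 and 0.10 ± 0.045). MVD, which decarboxylates mevalonate diphosphate, was lower at both times (-0.16 ± 0.055 at 8 h and -0.17 ± 0.055 at 24 h). Both MVD calls were lost after quantile normalization and without untreated replicate 1. The call at 24 h was also lost without replicate 3 of H2O2 at 24 h, where the difference was -0.09 (adjusted p of 0.155), and the call at 8 h was also lost without untreated replicate 3 or replicate 1 or 3 of H2O2 at 8 h. FDPS, which makes farnesyl diphosphate, was higher at 4 h of H2O2 (0.11 ± 0.031), differed by -0.06 ± 0.031 at 8 h without passing, and was lower at 24 h (-0.44 ± 0.031, adjusted p of 8.43e-10). PMVK, phosphomevalonate kinase, differed by -0.11 ± 0.050 at 8 h without passing and passed as lower at 24 h (-0.17 ± 0.050), with no difference past the test between these times (-0.06 ± 0.050). Its 24 h call was lost without untreated replicate 3 (-0.12) or without replicate 1 of H2O2 at 24 h (-0.13). Under NCS the calls in these 5 were MVD higher at 4 h (0.20 ± 0.055) and 24 h (0.18 ± 0.055) and FDPS higher at 8 h (0.09 ± 0.031). The FDPS call was lost in 14 of the 21 fits that left out 1 library and was 0.06 without untreated replicate 2 or without replicate 3 of NCS at 8 h. The MVD calls were lost without untreated replicate 2, without NCS replicate 3 at 4 h, and without NCS replicate 1 or 2 at 24 h, with differences of 0.15 to 0.19. FDPS shares exonic bases with RUSC1-AS1 and MVK with MMAB, both on the opposite strand, and FDPS has near-identical pseudogene copies that could share its reads.

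Of the 9 members that lead from farnesyl diphosphate to cholesterol, 7 were lower at 24 h of H2O2 and 4 at 8 h, against 19.9% and 18.6% of all genes tested, and their median difference was -0.23 at 24 h. At 4 h of H2O2, 2 of the 9 were higher and 0 lower, against 26.2% and 19.7% of all genes. TM7SF2, a sterol C14-reductase, was 1 of these 2. Its untreated libraries read 5.68, 5.73 and 5.74. With H2O2 the values were 6.16, 6.13 and 6.10 after 4 h, 5.86, 5.74 and 5.78 after 8 h and 5.80, 6.0 and 5.77 after 24 h. The NCS libraries read 5.80, 5.65 and 5.71 after 4 h, 6.10, 5.79 and 5.95 after 8 h and 6.05, 6.12 and 6.08 after 24 h. All libraries of H2O2 at 4 h and 24 h and of NCS at 8 h and 24 h lay above every untreated library. TM7SF2 rose by 0.41 ± 0.070 at 4 h of H2O2 (adjusted p of 8.61e-05) and by 0.37 ± 0.070 at 24 h of NCS (adjusted p of 0.000291), and at 24 h of H2O2 the difference was 0.14 ± 0.070 (adjusted p of 0.134). Its rise at 8 h of NCS (0.23 ± 0.070) did not pass without untreated replicate 1 or without replicate 1 or 3 of NCS at 8 h.

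EBP, the sterol isomerase that shifts the double bond of the sterol ring, was lower at 24 h of both agents. Its untreated libraries read 10.28, 10.26 and 10.33. The H2O2 libraries read 10.35, 10.34 and 10.35 after 4 h, 10.22, 10.23 and 10.25 after 8 h and 9.83, 9.86 and 9.81 after 24 h. Under NCS it read 10.43, 10.36 and 10.36 after 4 h, 10.29, 10.30 and 10.36 after 8 h and 10.02, 10.09 and 9.99 after 24 h. At 24 h the libraries of both agents lay below every untreated library, and those of H2O2 below those of NCS. By less, the libraries of both agents at 4 h lay above, and those of H2O2 at 8 h below, the untreated ones. EBP fell by 0.46 at 24 h of H2O2 (SE 0.030, adjusted p of 3.37e-10) and by 0.26 at 24 h of NCS (adjusted p of 1.03e-06), and the difference between the agents was -0.20 ± 0.030 (adjusted p of 6.52e-05). Its rise at 4 h of NCS (0.09 ± 0.030) was lost without untreated replicate 1, untreated replicate 2 or NCS replicate 1. EBP and ACAT2 were the 2 members lower at 24 h of NCS.

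Squalene synthase FDFT1, the squalene epoxidase SQLE and lanosterol synthase LSS, which act one after the other, were lower at 8 h of H2O2, with differences of -0.29 ± 0.036, -0.27 ± 0.051 and -0.43 ± 0.043. At 24 h they differed from untreated cells by -0.27 ± 0.036, -0.42 ± 0.051 and -0.23 ± 0.043. Under NCS the 3 differed at 8 h by -0.11 ± 0.036, -0.20 ± 0.051 and -0.13 ± 0.043, all past the test. The calls of FDFT1 and LSS there did not hold after quantile normalization and were lost in 7 and 5 of the 21 fits that left out 1 library. In a limma fit of the compared groups alone all 3 calls were lost, with an adjusted p of 0.0872 in SQLE. Without untreated replicate 1 the differences were -0.06 in FDFT1 (adjusted p of 0.256) and -0.09 in LSS (adjusted p of 0.199). At 24 h of NCS, FDFT1 (0.11 ± 0.036) and LSS (0.20 ± 0.043) were higher than in untreated cells, the first of these lost without untreated replicate 2 or 3 or NCS 24 h replicate 1, while SQLE differed by 0.10 ± 0.051 and did not pass. CYP51A1, the lanosterol demethylase, was higher at 4 h of H2O2 (0.16 ± 0.043) and lower at 24 h (-0.17 ± 0.043). It was also lower at 8 h of NCS (-0.18, adjusted p of 0.00423). All 3 of these CYP51A1 calls were lost in a fit of the compared groups alone. DHCR7, which makes cholesterol from 7-dehydrocholesterol, was lower at 24 h of H2O2 (-0.40 ± 0.031, adjusted p of 5e-09) and passed in no other comparison with untreated cells. NSDHL, a C4-decarboxylating dehydrogenase, differed by -0.11 ± 0.036 at 24 h of H2O2 and by 0.10 ± 0.036 at 24 h of NCS, both past the test but lost in 2 and 4 of the 21 fits that left out 1 library, with differences down to -0.08 and 0.08. HSD17B7, a ketosteroid reductase of the pathway, was lower at 8 h of H2O2 (-0.33 ± 0.070) and higher at 8 h of NCS (0.22 ± 0.070), the second call being lost in 4 of those 21 fits. The first was lost in a limma fit of the compared groups alone (adjusted p of 0.0597). HSD17B7 has a near-identical pseudogene copy, and how reads were split between them is uncertain.

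The regulators did not move as a block. INSIG1, which holds SCAP in the endoplasmic reticulum and is itself a target of SREBPs, read 11.42, 11.09 and 11.16 in the untreated libraries. Under H2O2 it read 11.47, 11.37 and 11.42 after 4 h, 10.78, 11.01 and 10.65 after 8 h and 10.87, 10.75 and 10.75 after 24 h. With NCS the values were 11.13, 11.15 and 11.21 after 4 h, 10.89, 10.78 and 10.80 after 8 h and 11.37, 11.30 and 11.32 after 24 h. The libraries of H2O2 at 8 h and 24 h and of NCS at 8 h lay below every untreated library, and those of NCS at 24 h were back within the untreated range. INSIG1 fell by 0.41 at 8 h (adjusted p of 0.000337) and 0.43 at 24 h (adjusted p of 0.000157) of H2O2, each with an SE of 0.078. At 8 h of NCS it fell by 0.40 (adjusted p of 0.000706). From 8 h to 24 h it then rose by 0.51 ± 0.078 under NCS (adjusted p of 5.04e-05) and differed by -0.02 ± 0.078 under H2O2 (adjusted p of 0.886). Its small rise at 4 h of H2O2 (0.20 ± 0.078, adjusted p of 0.0491) came with overlapping libraries and was lost in 18 of the 21 fits that left out 1 library, with adjusted p-values up to 0.235.

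SREBF2 was lower after 8 h and 24 h of H2O2. Its untreated libraries read 12.05, 11.98 and 11.98. With H2O2 the values were 11.99, 11.91 and 11.94 after 4 h, 11.79, 11.81 and 11.80 after 8 h and 11.72, 11.72 and 11.71 after 24 h. The NCS libraries read 12.02, 12.07 and 12.06 after 4 h, 11.94, 11.87 and 11.92 after 8 h and 12.11, 12.07 and 12.09 after 24 h. The libraries of H2O2 at 8 h and 24 h and of NCS at 8 h lay below, and those of NCS at 24 h above, every untreated library. SREBF2 fell by 0.20 at 8 h (adjusted p of 2.28e-06) and by 0.28 at 24 h (adjusted p of 1.39e-08) of H2O2, each with an SE of 0.024. The difference at 8 h of NCS was -0.09 ± 0.024 (adjusted p of 0.00818) and was lost without untreated replicate 1 or NCS 8 h replicate 2, and at 24 h of NCS the difference was 0.09 ± 0.024 (adjusted p of 0.00513).

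SREBF1 moved in opposite directions under the 2 agents at 8 h. Its untreated libraries read 11.08, 10.98 and 11.08. The H2O2 libraries read 11.09, 11.04 and 11.05 after 4 h, 11.37, 11.18 and 11.37 after 8 h and 11.01, 10.97 and 10.98 after 24 h. Under NCS it read 10.82, 10.81 and 10.84 after 4 h, 10.72, 10.64 and 10.70 after 8 h and 11.12, 11.14 and 11.11 after 24 h. All libraries of H2O2 at 8 h and of NCS at 24 h lay above, and all of NCS at 4 h and 8 h below, the untreated ones. SREBF1 rose by 0.26 ± 0.041 at 8 h of H2O2 (adjusted p of 5.21e-05) and fell by 0.36 at 8 h of NCS (adjusted p of 2.01e-06). The difference between the agents at 8 h was 0.62 ± 0.041 (adjusted p of 3.71e-09), the largest among the members at that time. By 24 h SREBF1 differed from untreated cells by -0.06 ± 0.041 under H2O2 and 0.08 ± 0.041 under NCS, and neither passed. Exons of SREBF1 overlap those of RAI1 on the opposite strand.

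INSIG2, a second INSIG protein, read 8.31, 8.23 and 8.32 in the untreated libraries. Under H2O2 it read 8.26, 8.24 and 8.18 after 4 h, 8.38, 8.30 and 8.29 after 8 h and 8.30, 8.32 and 8.42 after 24 h. With NCS the values were 8.10, 8.25 and 8.10 after 4 h, 8.29, 8.37 and 8.31 after 8 h and 8.52, 8.48 and 8.44 after 24 h. The H2O2 libraries overlapped the untreated ones at each time, and those of NCS at 24 h lay above them. INSIG2 rose by 0.20 ± 0.045 at 24 h of NCS (adjusted p of 0.00148). Its difference at 4 h of NCS was -0.13 ± 0.045 (adjusted p of 0.0462), with overlapping libraries, and was lost in 12 of the 21 fits that left out 1 library. SCAP, the escort of the SREBPs, read 10.61, 10.64 and 10.62 in the untreated libraries. With H2O2 the values were 10.61, 10.53 and 10.51 after 4 h, 10.46, 10.52 and 10.52 after 8 h and 10.72, 10.61 and 10.66 after 24 h. The NCS libraries read 10.58, 10.65 and 10.66 after 4 h, 10.57, 10.59 and 10.58 after 8 h and 10.66, 10.65 and 10.67 after 24 h. SCAP moved little, with the libraries of both agents at 8 h below, and those of NCS at 24 h above, every untreated library. The differences of SCAP from untreated cells lay between -0.12 at 8 h of H2O2 (adjusted p of 0.00321) and 0.04 at 24 h of H2O2, and the one at 8 h was the only one to pass.

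STARD4, a cytosolic carrier of sterol and a target of SREBP-2, had group means of 10.92 in untreated cells, 10.60 at 8 h and 10.68 at 24 h of H2O2, and 11.11 and 11.17 at the same times of NCS, with SDs from 0.040 to 0.107 (n = 3 each). STARD4 was lower at 8 h of H2O2 (-0.32 ± 0.051) and at 24 h (-0.25 ± 0.051). It was higher at 8 h of NCS (0.18 ± 0.051, lost without untreated replicate 2 or NCS 8 h replicate 1) and at 24 h (0.24 ± 0.051). The agents differed by -0.51 ± 0.051 at 8 h (adjusted p of 5.07e-07) and by -0.49 ± 0.051 at 24 h (adjusted p of 1.15e-06).

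**Figure D3:**
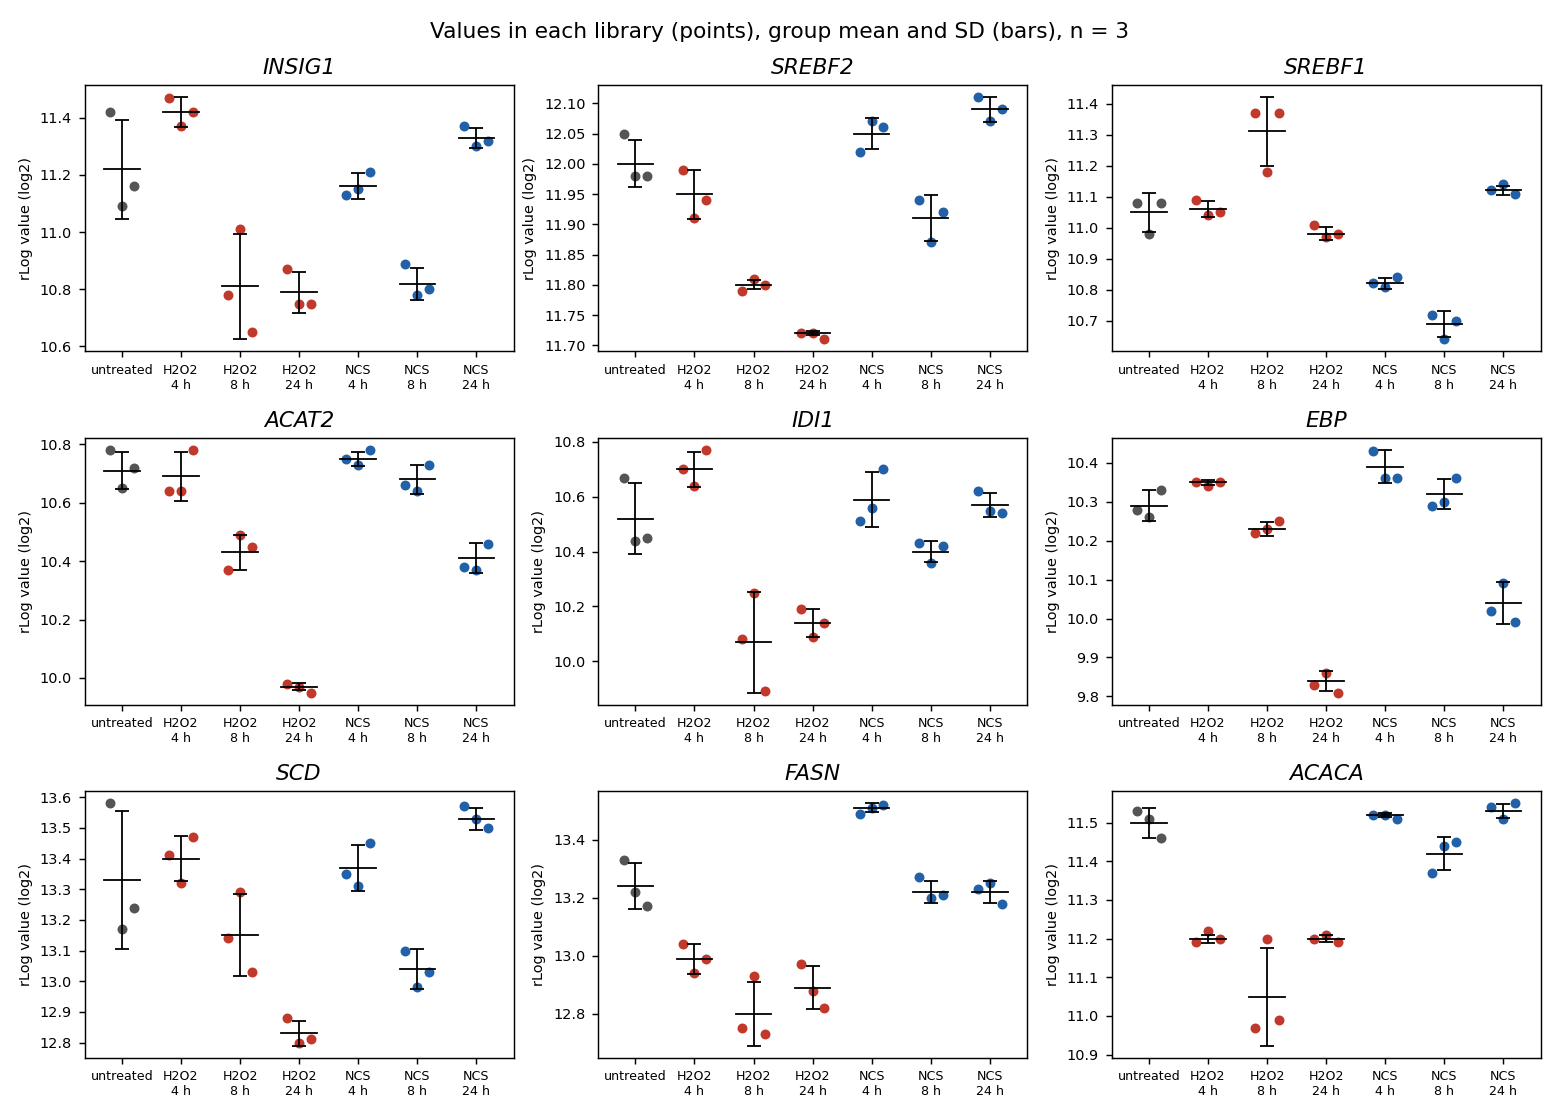
rLog values (log2 scale) of 9 members in each of the 21 libraries (points), with the mean and SD of each group of 3 (black bars); grey marks untreated cells, red H2O2 and blue NCS at 4, 8 and 24 h, and each panel has its own vertical range. ACAT2 steps down under H2O2 from a mean of 10.69 at 4 h to 9.97 at 24 h, INSIG1 falls under both agents at 8 h and is back at 11.33 at 24 h of NCS, and FASN is below all untreated libraries at each time of H2O2.

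Among the 7 members of fatty acid synthesis, the carboxylase ACACA and the synthase FASN were lower at all 3 times of H2O2. FASN, which builds palmitate, read 13.33, 13.22 and 13.17 in the untreated libraries. The H2O2 libraries read 13.04, 12.94 and 12.99 after 4 h, 12.75, 12.93 and 12.73 after 8 h and 12.97, 12.88 and 12.82 after 24 h. Under NCS it read 13.49, 13.51 and 13.52 after 4 h, 13.27, 13.20 and 13.21 after 8 h and 13.23, 13.25 and 13.18 after 24 h. The H2O2 libraries lay below every untreated library at each time, and the NCS libraries lay above them at 4 h. FASN fell by 0.25 at 4 h (adjusted p of 0.000384), 0.44 at 8 h (adjusted p of 8.91e-07) and 0.35 at 24 h (adjusted p of 9.4e-06) of H2O2. At 4 h of NCS it rose by 0.27 ± 0.049 (adjusted p of 0.000653), and the agents differed there by -0.51 ± 0.049 (adjusted p of 9.95e-08), the largest difference at 4 h.

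ACACA, the cytosolic acetyl-CoA carboxylase that makes malonyl-CoA, read 11.53, 11.51 and 11.46 in the untreated libraries. Under H2O2 it read 11.19, 11.22 and 11.20 after 4 h, 10.97, 11.20 and 10.99 after 8 h and 11.20, 11.21 and 11.19 after 24 h. With NCS the values were 11.52, 11.52 and 11.51 after 4 h, 11.37, 11.44 and 11.45 after 8 h and 11.54, 11.51 and 11.55 after 24 h. All 9 H2O2 libraries lay below the untreated ones, as did those of NCS at 8 h by less. ACACA fell by 0.30 at 4 h (adjusted p of 9.73e-06), 0.45 at 8 h (adjusted p of 8.22e-08) and 0.30 at 24 h (adjusted p of 7.05e-06) of H2O2, and its differences under NCS lay between -0.08 and 0.04 and did not pass.

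ELOVL6, which lengthens palmitate to stearate, read 9.72, 9.71 and 9.69 in the untreated libraries. With H2O2 the values were 9.41, 9.47 and 9.35 after 4 h, 9.33, 9.53 and 9.28 after 8 h and 9.59, 9.58 and 9.61 after 24 h. The NCS libraries read 9.55, 9.55 and 9.57 after 4 h, 9.63, 9.60 and 9.65 after 8 h and 9.81, 9.83 and 9.72 after 24 h. The libraries of H2O2 at each time, and of NCS at 4 h and 8 h, lay below every untreated library. ELOVL6 fell by 0.30 at 4 h (adjusted p of 3.75e-05) and 0.33 at 8 h (adjusted p of 1.57e-05) of H2O2, and at 24 h the difference was -0.11 ± 0.046 (adjusted p of 0.0616). Its fall at 4 h of NCS (-0.15 ± 0.046, adjusted p of 0.0333) was lost without any 1 of the 6 libraries compared.

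The desaturases differed among themselves. SCD, which makes oleate from stearate, read 13.58, 13.17 and 13.24 in the untreated libraries. The H2O2 libraries read 13.41, 13.32 and 13.47 after 4 h, 13.14, 13.29 and 13.03 after 8 h and 12.88, 12.80 and 12.81 after 24 h. Under NCS it read 13.35, 13.31 and 13.45 after 4 h, 13.10, 12.98 and 13.03 after 8 h and 13.57, 13.53 and 13.50 after 24 h. Untreated replicate 1 stood above the other 2 by more than the spread of any treated group, and the libraries of H2O2 at 24 h and NCS at 8 h lay below all 3. SCD fell by 0.50 at 24 h of H2O2 (SE 0.082, adjusted p of 5.55e-05). At 8 h of NCS it fell by 0.29 (adjusted p of 0.0122), a call lost without untreated replicate 1 or NCS 8 h replicate 2, and it rose by 0.50 ± 0.082 from 8 h to 24 h of NCS (adjusted p of 0.000102). At 24 h the agents differed by -0.70 ± 0.082 (adjusted p of 4.14e-06), the largest difference between them at that time.

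FADS1, the delta-5 desaturase of polyunsaturated fatty acids, read 12.46, 12.31 and 12.32 in the untreated libraries. Under H2O2 it read 12.43, 12.38 and 12.51 after 4 h, 12.52, 12.52 and 12.47 after 8 h and 12.45, 12.40 and 12.42 after 24 h. With NCS the values were 12.54, 12.56 and 12.67 after 4 h, 12.60, 12.58 and 12.61 after 8 h and 12.51, 12.51 and 12.55 after 24 h. All 9 NCS libraries, and those of H2O2 at 8 h, lay above the untreated ones. FADS1 rose by 0.22 ± 0.039, 0.23 ± 0.039 and 0.16 ± 0.039 at the 3 times of NCS (adjusted p of 0.000367, 0.000191 and 0.00303) and by 0.14 ± 0.039 at 8 h of H2O2 (adjusted p of 0.00777). The FADS1 call at 8 h of H2O2 was lost in a limma fit of the compared groups alone (adjusted p of 0.0681). FADS2, the neighbouring delta-6 desaturase, was lower at 24 h of H2O2 (-0.45 ± 0.043, adjusted p of 6.74e-08) and passed in no other comparison with untreated cells. Exons of FADS1 and FADS2 overlap on opposite strands, and FADS2 shares exonic bases with FEN1 on the same strand. ACLY, which makes cytosolic acetyl-CoA from citrate, moved little, by -0.06 ± 0.016 at 24 h of H2O2 and by 0.09 ± 0.016 and 0.09 ± 0.016 at 4 h and 24 h of NCS, all past the test. Its difference at 24 h of NCS was -0.01 after quantile normalization.

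Cells given H2O2 were then compared directly with cells given NCS for the same time. At 24 h, 26 of the 29 members were lower under H2O2 and 0 were higher, against 10.9% and 11.0% of all genes tested, and the median difference of the members was -0.33. At an unadjusted p-value under 0.05 in the limma fit, 27 were lower and 0 higher, again with no share of all genes counted. HSD17B7 (-0.13 ± 0.070), SCAP (0.01 ± 0.030) and FADS1 (-0.10 ± 0.039) were the 3 that did not pass. At 8 h, 18 were lower and 2 higher, against 15.4% and 18.7%, and the 2 higher ones were SREBF1 and CYP51A1 (0.19 ± 0.043). The mean of CYP51A1 at 8 h was 11.08 under H2O2 and 10.88 under NCS, against 11.07 in untreated cells. At 4 h, 10 were lower and 5 higher, against 18.0% and 26.3%. Of the 10 that were lower at 4 h, 5 were fatty acid members, and the 5 higher ones were SQLE (0.16 ± 0.051), CYP51A1 (0.17 ± 0.043), TM7SF2 (0.41 ± 0.070), INSIG1 (0.26 ± 0.078) and SREBF1 (0.23 ± 0.041). In all, 16 members were lower under H2O2 at both 8 h and 24 h, and the share of all genes lower at both was not counted. The 7 mevalonate members were all among the lower ones at both times. Some calls did not hold in each of the 21 fits that left out 1 library. At 4 h these were SCAP (-0.08 ± 0.030, lost in 4), SQLE (lost in 2), STARD4 (lost in 1) and ELOVL6 (lost in 1). At 8 h they were SCAP (-0.08 ± 0.030, lost in 15), ACLY (lost in 4) and EBP (lost in 3), and at 24 h INSIG2, TM7SF2 and SREBF1 (lost in 4, 4 and 3).

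**Figure D4:**
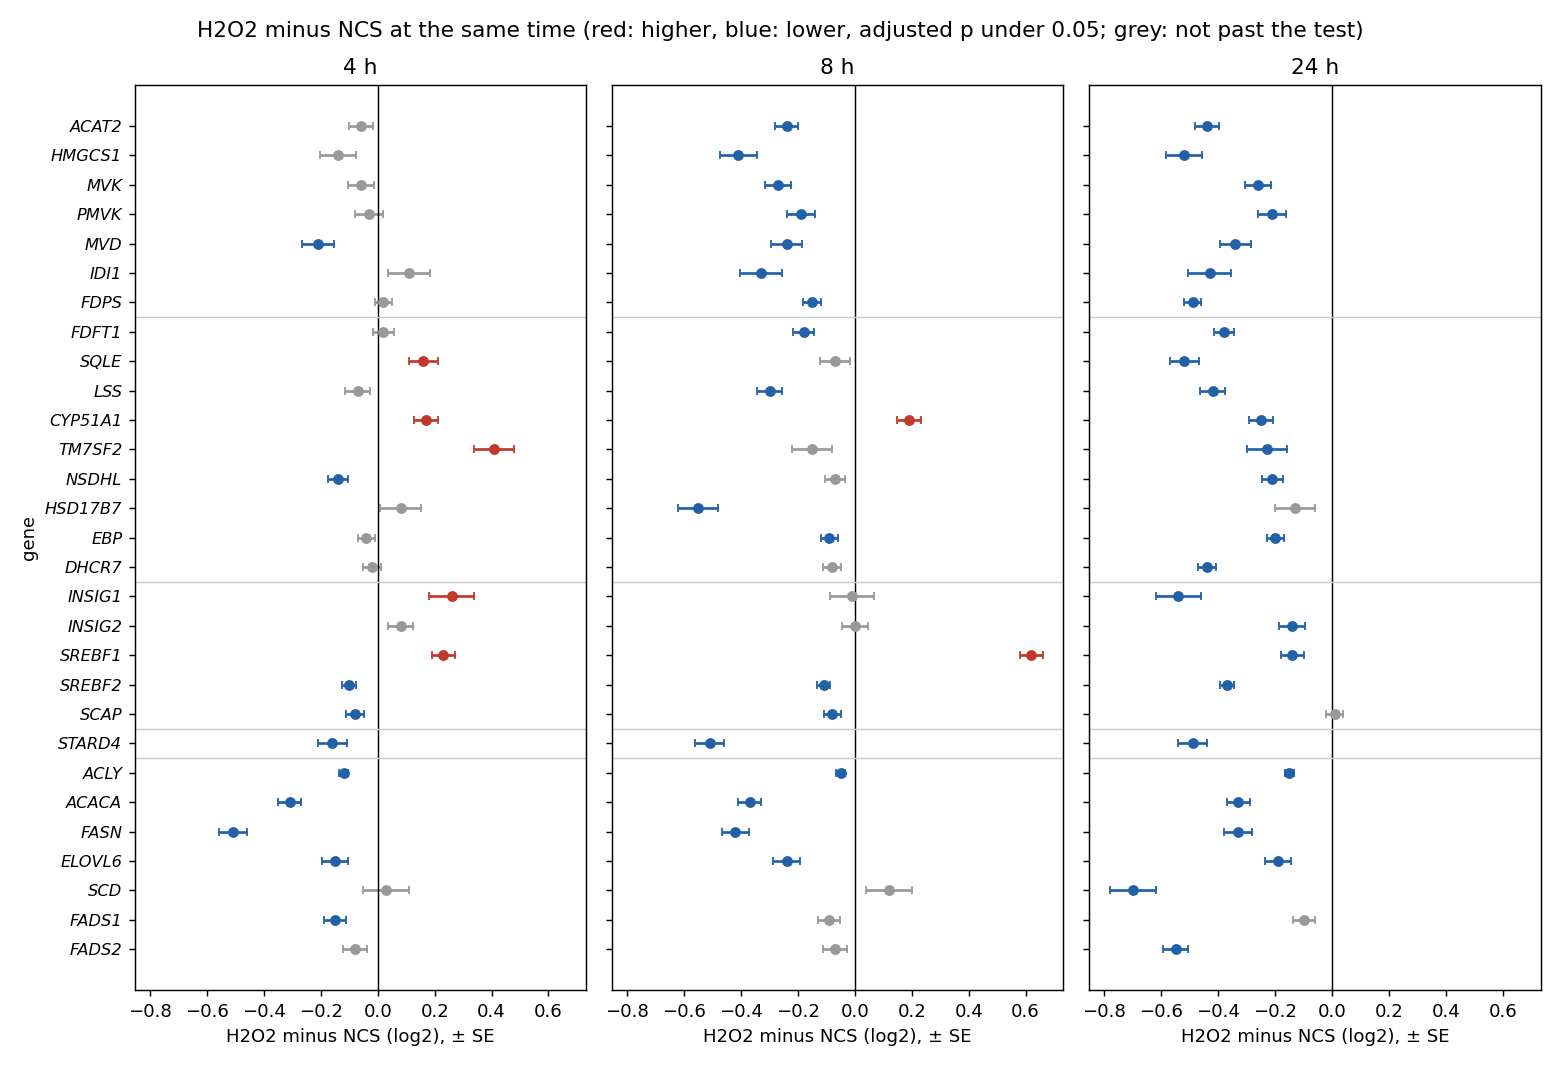
H2O2 minus NCS (log2 scale, point) with its SE (bar) for each of the 29 members at 4, 8 and 24 h, ordered by role with grey lines between roles; blue marks lower, red higher and grey not past an adjusted p-value of 0.05. At 24 h every coloured point is blue, 26 of 29, while at 4 h 5 points are red and 10 blue, and at 8 h SREBF1 stands alone at 0.62.

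The distance between the agents changed with time in most members. In a test of the change of the H2O2 minus NCS difference from 4 h to 24 h, 20 of the 29 members (69.0%) passed, against 39.4% of all genes tested. The largest changes were in INSIG1 (-0.80), SCD (-0.73) and SQLE (-0.68). FASN changed by 0.19, the only one of the 20 in the other direction, since its difference was larger at 4 h, and this call was lost in 8 of the 21 fits that left out 1 library. ACACA, with -0.31 ± 0.041 at 4 h and -0.33 ± 0.041 at 24 h, did not change past the test.

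Comparisons between times followed the members within each agent. In them, time since the agent cannot be told apart from hours since fresh medium, because untreated cells were collected at 0 h only. From 4 h to 8 h of H2O2, 21 members fell and 1 rose, against 27.7% and 18.0% of all genes. The 21 held all 7 mevalonate members and 8 of the 9 that follow them, and the 1 that rose was SREBF1 (0.25 ± 0.041). Among those that fell, MVD, SCD and PMVK lost their calls in 3, 3 and 1 of the 21 fits that left out 1 library. In these fits 19 to 22 members fell. From 8 h to 24 h of H2O2, 10 fell and 5 rose, against 23.2% and 19.4%. ACAT2 (-0.47 ± 0.042), FADS2 (-0.41 ± 0.043), EBP (-0.40 ± 0.030), FDPS (-0.38 ± 0.031) and DHCR7 (-0.33 ± 0.031) had the 5 largest falls. LSS (0.21 ± 0.043), HSD17B7 (0.24 ± 0.070), ELOVL6 (0.21 ± 0.046), SCAP (0.16 ± 0.030) and ACACA (0.15 ± 0.041) rose, HSD17B7 not past the test without replicate 1 of H2O2 at 8 h. The rises of HSD17B7 and ACACA did not pass in a fit of the compared groups alone. Without replicate 2 of H2O2 at 8 h, 8 members rose and not 5.

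Under NCS some members fell from 4 h to 8 h and more rose from 8 h to 24 h. From 4 h to 8 h of NCS, 7 members fell and 2 rose, against 7.50% and 6.16% of all genes. The falls were in INSIG1 (-0.34 ± 0.078), SCD (-0.33 ± 0.082), FASN (-0.28 ± 0.049), CYP51A1 (-0.17 ± 0.043), SREBF1 (-0.14 ± 0.041), SREBF2 (-0.14 ± 0.024) and ACLY (-0.07 ± 0.016), and the rises in TM7SF2 (0.23 ± 0.070) and INSIG2 (0.17 ± 0.045). Of these, SREBF1, TM7SF2, INSIG2 and CYP51A1 lost their calls in 5, 4, 3 and 2 of the 21 fits that left out 1 library. From 8 h to 24 h, 12 rose and 2 fell, against 14.9% and 15.0%. Of the 12, ACACA (0.11), ELOVL6 and INSIG2 lost their calls in 18, 2 and 1 of those 21 fits, in which 10 to 14 members rose. The 12 included INSIG1, SCD, SREBF1 (0.44 ± 0.041), LSS (0.33 ± 0.043), SQLE (0.30 ± 0.051) and CYP51A1 (0.26 ± 0.043), and the 2 that fell were EBP (-0.28 ± 0.030) and ACAT2 (-0.27 ± 0.042). With library medians aligned, 11 fell from 4 h to 8 h and 19 rose from 8 h to 24 h.

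Another 29 genes of the same pathways, from a list of sterol enzymes and carriers, cholesterol efflux genes and genes of fatty acid supply, moved in both directions. At 24 h of H2O2, 13 of these 29 were higher and 7 lower, against 20.2% and 19.9% of all genes tested, and at 24 h of H2O2 against NCS 6 were higher and 9 lower, against 11.0% and 10.9%. Of the 10 sterol genes, 6 were lower and 1 higher in that last comparison. Against untreated cells at 24 h of H2O2, 3 of these 10 were higher and 4 lower, with a median difference of 0.01. The 3 higher ones were GGPS1 (0.19 ± 0.040), NPC1 (0.10 ± 0.037) and MBTPS1 (0.07 ± 0.020). NPC1 was also the 1 that was higher under H2O2 than under NCS at 24 h (0.18 ± 0.037). MSMO1, a sterol C4-methyl oxidase, was lower under H2O2 than under NCS at 24 h (-0.54 ± 0.060). TMEM97, a sterol-regulated membrane protein, was lower at 24 h of H2O2 (-0.86 ± 0.043) and of NCS (-0.59 ± 0.043). ABCA1, which exports cholesterol from cells, was higher at 24 h of both agents, by 1.03 ± 0.066 and 0.96 ± 0.066. ACSL1, which links long-chain fatty acids to coenzyme A, was higher at 24 h by 0.87 ± 0.027 under H2O2 and 0.41 ± 0.027 under NCS.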

How the data were processed

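RNA from 21 libraries of hTERT-HPNE cells had been prepared with a stranded mRNA kit. Per the labels, the authors aligned reads with HISAT2, counted them with HTSeq and used DESeq2 with the build hg19, while versions, annotation and strand setting are not given in the sources used here. The deposited log2 values are DESeq2's rLog transformation of the counts made by the authors, which scales for library size and shrinks differences. The values hold no depth, and the number of libraries limits the precision.

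Groups came from the labels, which give treatment, time and replicate. Values were used as deposited. Of 23368 genes, 3674 at 0 in every library were left out. One fit of the 7 groups with limma 3.58.1 (R 4.3.3, mean-variance trend, two-sided, Benjamini-Hochberg over 19694 genes per comparison) gave 13 comparisons, 6 with untreated cells, 3 of H2O2 with NCS and 4 between times, and the interaction of treatment and time. The fit was tested on simulated data. The study's limits were an adjusted p-value under 0.05 together with an absolute log2 difference over 1.

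The members and lists were chosen with earlier results of these data known. Values in every library are given for members past both limits, for the 3 members with the largest passing difference without overlap in each comparison with untreated cells, and for the 5 regulators, and other genes come from fixed lists, of which 1 gene is not reported here. Motif shares were counted in 250-base windows, and exon overlaps came from GENCODE v29. Python 3.11.15, pandas 2.3.3, numpy 2.4.6 and matplotlib 3.10.9 were used outside R. Alternatives were leaving out each library, a replicate block, fitting the compared groups alone, no mean-variance trend, a log2 limit of 0.58, testing genes with a mean of 5 or more, quantile normalization and aligned library medians.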

Additional observations from a re-analysis of the deposited data

Results flagged for a closer look

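These values drew attention because the difference between H2O2 and NCS changed from 4 h to 24 h past the limma test of that change (adjusted p-value under 0.05, n = 3 libraries per group). Each value is H2O2 minus NCS at 24 h, less the same difference at 4 h, on the log2 scale. Among the mevalonate members it was -0.37 in ACAT2, -0.38 in HMGCS1, -0.20 in MVK, -0.55 in IDI1 and -0.51 in FDPS. From squalene to cholesterol it was -0.40 in FDFT1, -0.68 in SQLE, -0.35 in LSS, -0.42 in CYP51A1, -0.64 in TM7SF2, -0.16 in EBP and -0.42 in DHCR7. Among the regulators it was -0.80 in INSIG1, -0.21 in INSIG2, -0.38 in SREBF1 and -0.27 in SREBF2. It was -0.33 in STARD4, and among the fatty acid members 0.19 in FASN, -0.73 in SCD and -0.47 in FADS2. The change passed in 39.4% of all genes tested. The changes of MVK and FASN were lost in 2 and 8 of the 21 fits that left out 1 library. In SQLE, CYP51A1, TM7SF2, INSIG1 and SREBF1 the H2O2 minus NCS difference passed as higher at 4 h and as lower at 24 h. The share of all genes with such a reversal was not counted. Of these calls, SQLE at 4 h was lost in 2 of those 21 fits, and TM7SF2 and SREBF1 at 24 h in 4 and 3.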

How the results depend on the processing

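The large counts held their size. With 1 library left out at a time, the members lower at 8 h and 24 h of H2O2 numbered 15 to 18 and 20 to 23, those lower than under NCS at 8 h and 24 h numbered 15 to 18 and 23 to 27, and those whose difference between agents changed with time numbered 18 to 22. Smaller counts moved more. Members higher at 4 h of H2O2 numbered 8 after quantile normalization, 7 with a mean value of at least 5, 2 in a fit of the compared groups alone, and 3 to 9 with 1 library left out. Members lower there numbered 6 with aligned medians and 3 to 5 with 1 library left out (5 without H2O2 4 h replicate 1). Members higher at 8 h of H2O2 numbered 1 in a fit of the compared groups alone, and those higher at 24 h numbered 2 after quantile normalization and 0 to 1 with 1 library left out. Members higher at 4 h of NCS numbered 8 after quantile normalization, 9 with a mean of at least 5, and 3 to 8 with 1 library left out, and those lower numbered 1 after quantile normalization and 1 to 3 with 1 left out. Members higher at 8 h of NCS numbered 2 in a fit of the compared groups alone and 2 to 5 with 1 library left out, and those lower numbered 5 after quantile normalization, 2 in a fit of the compared groups alone and 4 to 9 with 1 left out. Members higher at 24 h of NCS numbered 7 to 15 with 1 library left out. From 8 h to 24 h of H2O2, 3 members rose in a fit of the compared groups alone and 4 to 8 with 1 library left out. From 4 h to 8 h of NCS, 1 rose after quantile normalization, 0 in a fit of the compared groups alone and 0 to 2 with 1 library left out, and 11 fell with aligned medians and 11 in a fit of the compared groups alone. From 8 h to 24 h of NCS, 19 rose with aligned medians and 4 fell in a fit of the compared groups alone. A log2 difference over 0.58 in place of 1 gave 1 member at 24 h of H2O2 (ACAT2), 1 in H2O2 against NCS at 8 h (SREBF1) and 1 at 24 h (SCD). After quantile normalization the difference of ACLY turned to -0.01 at 24 h of NCS against untreated cells and to -0.01 against 8 h of NCS. The cause of these moves was not tested, except that a fit of the compared groups alone holds fewer libraries.

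Same-numbered libraries had deviations from their group means correlated between -0.113 and 0.213, with 8 of 39 pairs over 0.1. In 0 of the 13 comparisons were all 3 pairs over 0.1, so the main fit used no pairing. Whether libraries of the same number shared a culture or batch cannot be told from these values. With the number as a replicate block, 22 members were lower at 24 h of H2O2, 16 at 8 h, and 26 were lower than under NCS at 24 h. Of the 221 results past the test in single members, 218 also passed with the replicate block, the exceptions being FDFT1 at 8 h and INSIG2 at 4 h of NCS and SCAP in H2O2 against NCS at 8 h. Of the 221, 164 passed under each of the alternatives run. No depth was available to set a limit of detection.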
